A study of Danio rerio with 8 samples.

Results

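The genes tbx16, noto, gsc, foxa3, mxtx2, irx7, klf17 and sox3 encode transcription factors that the zebrafish (Danio rerio) embryo switches on from its own genome, and they were followed in ribosome footprint libraries. They were taken by gene identifier, 8 of 33633 identifiers with a value in every group, and the choice used no threshold on a measured value. Earlier results of these data were known when the genes were chosen, so their comparison with all genes is a description. All embryos were collected at 4 hours post fertilization (hpf) and formed 4 groups of 2 samples. WT were wild type embryos, and KO were embryos homozygous for a ddx3xb mutation (genotype label Ddx3xb-/Ddx3xb-). KO_FL and KO_dN carried the same genotype and had been injected with ddx3xbFL or with ddx3xb_deltaN. The labels give neither the mutated position, nor the part of ddx3xb that each construct holds, nor whether maternal ddx3xb product was also missing. No mutant injected with a control is among the samples, so against the uninjected groups construct and injection cannot be told apart. Footprints are the RNA pieces covered by a ribosome; they were recovered after cycloheximide and RNase I treatment of whole embryos.

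At this blastula stage the embryo moves from maternal messages to its own transcription. In zebrafish the maternal factors Nanog, Pou5f3 and Sox19b open the zygotic genome, and the first wave of zygotic genes includes transcription factors that set up mesoderm, endoderm, ectoderm and the extra-embryonic yolk syncytial layer. DDX3 proteins are RNA helicases known to act in translation initiation. A footprint level reflects both how much of a message there is and how heavily it is translated, and in whole embryos fewer cells expressing a gene and less RNA per cell cannot be told apart either.

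Each group had 1 deposited value per gene, FPKM (a fragment count per kilobase of transcript and per unit of mapped reads), which the authors made from both replicates. No value below therefore has a replicate error, and no test was possible. The deposited scale differed between groups: the FPKM of WT summed to 2050290, those of KO to 364061, those of KO_FL to 395754 and those of KO_dN to 190693. Scaled FPKM, which are the deposited values divided by 3.40 (WT), 0.73 (KO), 0.90 (KO_FL) or 0.45 (KO_dN), bring the median of 3177 well-covered genes level. Read numbers are not stated in the sources used here. The worth of a read relative to KO was read from 4 common steps between the lowest values, chosen to lie symmetrically about their mean. It was 1.66 to 3.36 times as much FPKM in WT, 0.570 to 1.37 times in KO_FL and 0.753 to 1.27 times in KO_dN. Each range runs from the lowest to the highest of the 4 steps and is not an error. Averaged on the log2 scale, the steps gave 2.36 in WT, 0.88 in KO_FL and 0.98 in KO_dN. What sets the steps apart was not tested, and the depth of the 3 mutant groups was not ranked from them. The target gene ddx3xb showed 128.9 FPKM in WT and 14.7 in KO, and 76.7 in KO_FL and 126.5 in KO_dN. On the scaled values it was 37.9, 20.1, 85.0 and 283.2 in the same order, so footprints on it were also read in KO, and its level alone does not check the genotype label.

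In wild type embryos all 8 genes had footprints, and their FPKM spanned 12.0-fold. irx7 (ENSDARG00000002601) was the highest at 36.0 FPKM, in the 95.2nd percentile among genes above 0 in WT, followed by tbx16 at 33.5, klf17 at 23.8 and noto at 19.7. sox3 stood at 11.3, mxtx2 at 8.61, gsc at 4.87 and foxa3, the lowest, at 3.00 FPKM, in the 70.5th percentile. With 1 value a group, which neighbours in this order differ beyond their spread could not be judged. All 8 were above 0 in every group.

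**Figure D1:**
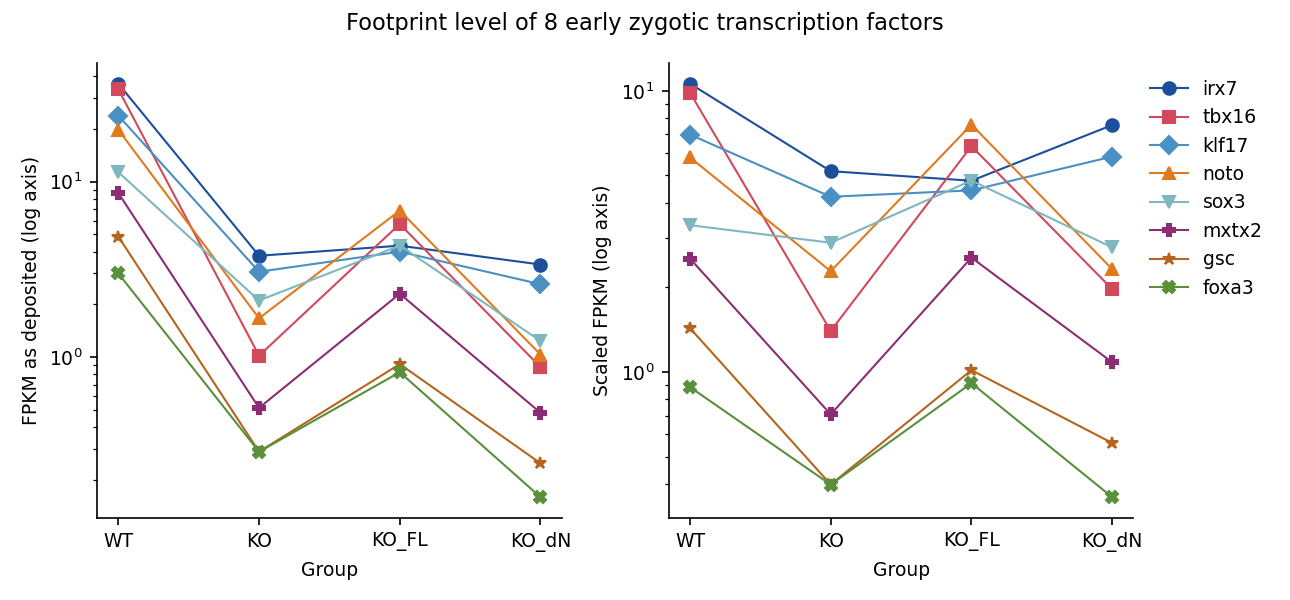
FPKM as deposited (left) and scaled FPKM (right), both on log axes, of the 8 genes in WT, KO, KO_FL and KO_dN; each point is 1 deposited value and lines only join the points of a gene. Deposited values of all 8 genes are lowest in KO_dN, and on the scaled axis tbx16, noto, mxtx2, gsc and foxa3 dip in KO and KO_dN while irx7 and klf17 vary less.

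tbx16, noto and mxtx2 were at least 2-fold lower in KO than in WT and at least 2-fold higher in KO_FL than in KO, on the scale described with the comparisons below. gsc and foxa3 also had KO and KO_dN below WT and KO_FL, without reaching 2-fold there. tbx16 (ENSDARG00000007329, the spadetail T-box factor that mesodermal cells need to move into the trunk) showed 33.5 FPKM in WT and 1.02 in KO, and 5.73 in KO_FL and 0.88 in KO_dN. Scaled, these were 9.85, 1.40, 6.36 and 1.97, so KO was 7.04-fold below WT and KO_FL 4.54-fold above KO. No other member differed as much between WT and KO. Its place among all genes with footprints went from the 94.8th percentile in WT to the 75.1st in KO, the 92.7th in KO_FL and the 79.0th in KO_dN, a measure that needs no scaling between groups.

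noto (ENSDARG00000021201, the floating head homeobox factor of the notochord) showed 19.7 FPKM in WT and 1.67 in KO, and 6.84 in KO_FL and 1.04 in KO_dN. The scaled values were 5.80, 2.28, 7.58 and 2.32. WT and KO_FL were the high groups, and KO and KO_dN nearly coincided. gsc (ENSDARG00000059073, goosecoid, a homeobox repressor of the dorsal organizer) showed 4.87 FPKM in WT and 0.29 in KO, and 0.92 in KO_FL and 0.25 in KO_dN. Scaled, these were 1.43, 0.40, 1.02 and 0.56. Its order of groups was the same on the scaled values as that of tbx16, at far lower levels.

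foxa3 (ENSDARG00000012788, a forkhead factor of endoderm and axial mesoderm) was the weakest member, at 3.00 FPKM in WT and 0.29 in KO, and 0.82 in KO_FL and 0.16 in KO_dN. Scaled it reached 0.88 in WT and 0.91 in KO_FL against 0.40 in KO and 0.36 in KO_dN. mxtx2 (ENSDARG00000015906, a Mix-type homeobox factor that directs the yolk syncytial layer) showed 8.61 FPKM in WT and 0.52 in KO, and 2.30 in KO_FL and 0.48 in KO_dN. On the scaled values WT (2.53) and KO_FL (2.55) were level, and KO (0.71) and KO_dN (1.08) lay below them. For these 5 genes and for sox3, KO and KO_dN were below both WT and KO_FL, on deposited and on scaled values alike. On scaled values 26.1% of the 6356 genes used as background below had that order, against 6 of the 8 members, and on deposited values 68.0% did, against all 8. This grouping was made after the values were seen. The share among members was not peculiar to them. In the gene lists read below, 9 of 12 genes marking the enveloping layer had that order on scaled values. So did 6 of 8 marking the yolk syncytial layer. It was less common in the other lists, with 10 of 30 other early zygotic factors, 3 of 9 germ plasm genes and 2 of 8 later markers. Of the maternal factors, 0 of 3 activators and 1 of 5 others had it. Many listed genes were near 0, which limits a contrast between lists. A mean of at least 1 scaled FPKM was reached by 8 of the 12 enveloping layer genes and 3 of the 8 yolk syncytial layer genes. It was also reached by 7 of the 30 zygotic factors, 6 of the 9 germ plasm genes and 0 of the 8 later markers. The yolk syncytial gene ctsla had the order by a small margin, with 110.4 in WT and 109.0 in KO, and mxtx1 was on 2 lists.

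irx7 and klf17 did not follow that order on the scaled values, and sox3 followed it by a small margin. irx7, an Iroquois homeobox factor known for patterning the neural plate, showed 36.0 FPKM in WT and 3.78 in KO, and 4.32 in KO_FL and 3.37 in KO_dN. Scaled, WT was highest at 10.6, KO_dN followed at 7.55, and KO (5.18) and KO_FL (4.79) were lowest, so ddx3xbFL embryos did not stand above the mutant. klf17 (ENSDARG00000038792, a Krüppel-like zinc finger factor known from blood and hatching gland) showed 23.8 FPKM in WT and 3.07 in KO, and 3.99 in KO_FL and 2.61 in KO_dN. Its scaled values had a narrow range, 6.99 in WT and 4.20 in KO, and 4.43 in KO_FL and 5.84 in KO_dN. sox3 (ENSDARG00000053569, an HMG-box factor of the SoxB1 family, active in ectoderm and neural precursors) showed 11.3 FPKM in WT and 2.11 in KO, and 4.32 in KO_FL and 1.24 in KO_dN. Scaled, KO (2.88) and KO_dN (2.78) lay slightly below WT (3.33), and KO_FL was highest at 4.80.

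Ratios between members inside a group do not depend on any scaling between groups. The tbx16 level was 0.93 times that of irx7 in WT, 0.27 times in KO, 1.33 times in KO_FL and 0.26 times in KO_dN. The mxtx2 level was 0.24, 0.14, 0.53 and 0.14 times that of irx7, and the gsc level 0.14, 0.077, 0.21 and 0.074 times. WT and KO_FL were again on one side and KO and KO_dN on the other. For noto the KO ratio of 0.44 was nearer to the 0.55 of WT than to the 0.31 of KO_dN, and KO_FL stood apart at 1.58. For foxa3 relative to irx7, WT (0.083) and KO (0.077) were close, KO_dN was lower (0.047) and KO_FL higher (0.19). sox3 had its lowest ratio to irx7 in WT, at 0.31, against 0.56 in KO, 1.00 in KO_FL and 0.37 in KO_dN. The ratio of klf17 to irx7 varied least, from 0.66 in WT to 0.92 in KO_FL. These ratios depend on the reference, and the scaled values of irx7 and klf17 were themselves lower in KO than in WT. Relative to klf17, foxa3 stood at 0.13, 0.095, 0.21 and 0.061 in WT, KO, KO_FL and KO_dN. In the same order noto stood at 0.83, 0.54, 1.71 and 0.40, and sox3 at 0.48, 0.69, 1.08 and 0.48. With that reference WT and KO_FL were the high groups for foxa3 and noto, and sox3 was level in WT and KO_dN.

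**Figure D2:**
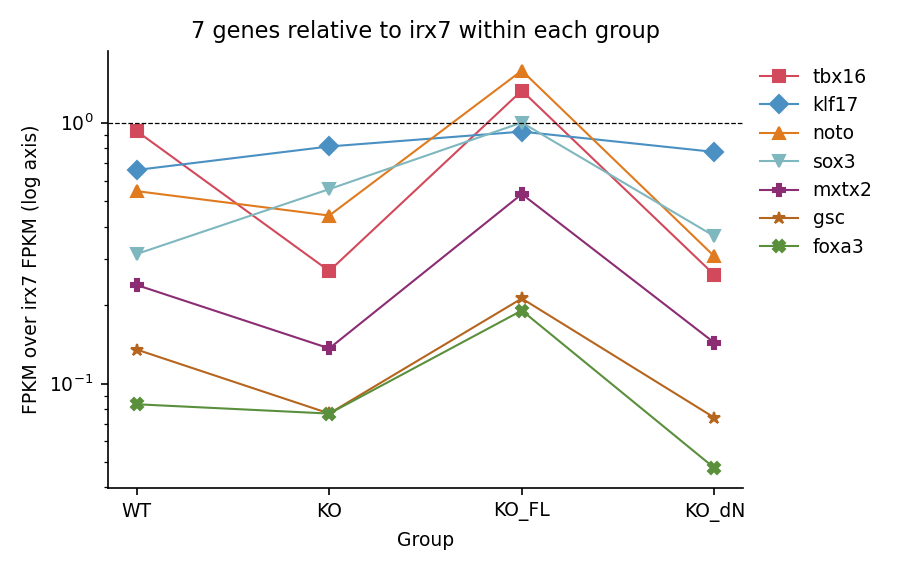
FPKM of 7 genes divided by the FPKM of irx7 in the same group, on a log axis; the dashed line marks equality with irx7, and lines only join the points of a gene. tbx16 and noto lie above irx7 in KO_FL (1.33 and 1.58) and well below it in KO (0.27 and 0.44) and KO_dN (0.26 and 0.31).

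The order of the 8 genes was the same in KO and in KO_dN: irx7, klf17, sox3, noto, tbx16, mxtx2, gsc and foxa3 from high to low. In KO, however, gsc (0.2907 FPKM) and foxa3 (0.2905) were level, so which of them came last there is not settled. In WT tbx16 was the second gene instead of the fifth. In KO_FL noto and tbx16 led, and sox3 (4.324 FPKM) and irx7 (4.318) followed, level with each other. Of the FPKM summed over the 8 genes, tbx16 held 23.8% in WT and 8.02% in KO, and 19.6% in KO_FL and 8.78% in KO_dN. noto held 14.0%, 13.1%, 23.4% and 10.3%. irx7 held 25.6%, 29.7%, 14.8% and 33.6% in that order of groups. With values rescaled to a common total per group (TPM), the 8 genes summed to 68.7 in WT and 35.0 in KO, and to 73.9 in KO_FL and 52.6 in KO_dN.

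**Figure D3:**
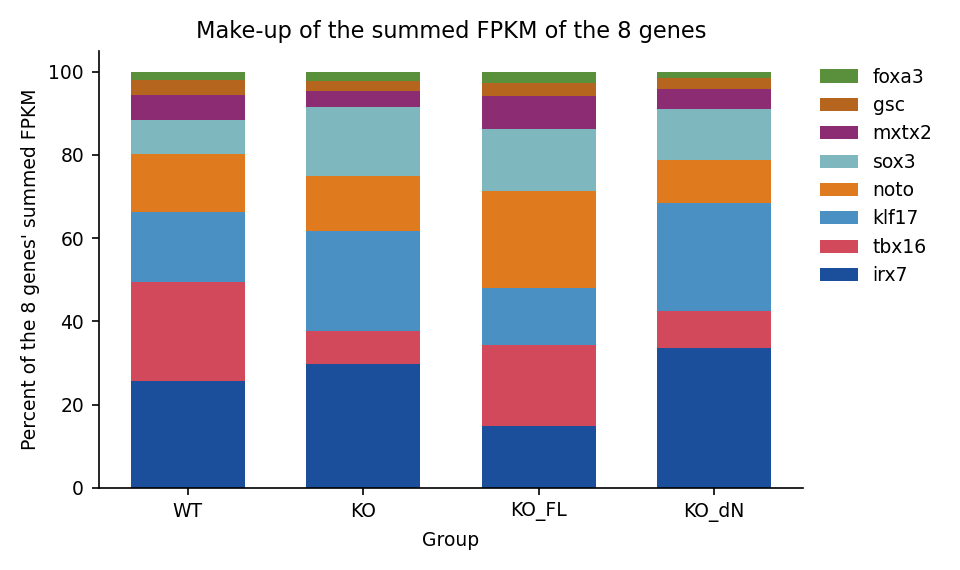
Percent of the summed FPKM of the 8 genes that each gene holds, in WT, KO, KO_FL and KO_dN; the segments of a bar add to the whole. The tbx16 segment is 23.8% in WT and 19.6% in KO_FL against 8.02% in KO and 8.78% in KO_dN.

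Differences between groups were also set against all genes. Log2 ratios were taken as log2((a + 1)/(b + 1)) on scaled FPKM, a scale that understates the change of low genes, and a gene at least 2-fold apart was counted as higher or lower. The background was 6356 genes with a mean of at least 1 scaled FPKM. Of the 8 members 6 passed that limit, and foxa3 and gsc did not; ratios are given for all 8. The 6 comparisons share groups, and each one's values are given for themselves.

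The WT values come in another layout than those of the mutant groups, with a header line, another separator, another gene order and repeated identifiers, and whether all were made in the same processing run is not stated. In KO against WT, which asks what the mutation changed, all 8 members had a ratio below 0, with a median of -0.85 against -0.19 over all genes tested. Against that median gene 7 of the 8 were lower, and sox3 was not. The 3 members at least 2-fold lower were tbx16 (log2 ratio -2.18), noto (-1.05) and mxtx2 (-1.05), and 0 were higher. Among all genes 20.4% were lower and 12.2% higher by as much, so low footprints in KO were common, and noto and mxtx2 lay at the 19.0th percentile of all ratios. tbx16 lay at the 5.18th. irx7 followed at -0.91, gsc at -0.80, klf17 at -0.62, foxa3 at -0.43 and sox3 at -0.16. Without a pseudocount, an alternative chosen after seeing the data, the low genes moved most, gsc to -1.85, mxtx2 to -1.84 and foxa3 to -1.15. Then 6 members were at least 2-fold lower, as were 27.5% of the 6120 tested genes above 0 in both groups. noto did not reach 2-fold with TPM (-0.93) or when the 50 highest genes were left out of the scaling (-0.99), and mxtx2 did not with deposited values centred on the median gene (-0.72). The direction of 2 members rested on the scale: foxa3 was above 0 with those centred values, and sox3 with TPM.

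The sample titles of KO_FL and KO_dN are worded in another style than those of WT and KO. They do not say whether all libraries were made together, so injection and a difference in preparation cannot be told apart. In KO_FL against KO, which sets mutants injected with ddx3xbFL against uninjected mutants, 3 members were at least 2-fold higher, tbx16 (1.62), noto (1.39) and mxtx2 (1.06), and 0 were lower. Of all genes, 5.55% were higher and 3.9% lower by as much. tbx16 lay at the 97.4th percentile of all ratios, noto at the 96.7th and mxtx2 at the 94.9th. sox3 (0.58), gsc (0.53) and foxa3 (0.45) also stood higher, while klf17 (0.06) and irx7 (-0.09) were near the median gene, which had a ratio of 0. irx7 turned to above 0 with TPM and with deposited values not centred, and klf17 to below 0 when the 50 highest genes were left out of the scaling. mxtx2 did not reach 2-fold with deposited values centred (0.92) or without the 50 highest genes (0.97). With a pseudocount of 5, 0 members reached 2-fold, and without a pseudocount 5 did. At least 2-fold higher were then 2.91% of all genes and 8.28% of those above 0 in both groups.

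In KO_dN against KO, 0 members were at least 2-fold higher or lower, and of all genes 3.04% were higher and 2.17% lower. With shares that small, 0 of 8 does not set the members apart from all genes. The members' median was 0.22 against -0.03 over all genes tested, and 6 of the 8 lay above the median gene. The highest ratios were those of irx7 (0.47), klf17 (0.39) and tbx16 (0.31), and those of sox3 and foxa3 were -0.04. As deposited, all 8 members were lower in KO_dN than in KO, but the median gene was lower too, at -0.43. With deposited values centred on that gene, 7 of the 8 were above 0. Their direction here thus depends on whether the groups are brought level. Between the constructs, in KO_FL against KO_dN, noto (1.37) and tbx16 (1.31) were at least 2-fold higher with ddx3xbFL and 0 members were lower. Of all genes 5.33% were higher and 4.88% lower. Both groups were injected, but scaled ddx3xb footprints were 85.0 in KO_FL and 283.2 in KO_dN, so the kind of construct and its amount cannot be told apart. mxtx2 (0.77), sox3 (0.62), foxa3 (0.49) and gsc (0.37) were on the same side. irx7 (-0.56) and klf17 (-0.33) were on the other, except on deposited values not centred, and gsc was below 0 with deposited values centred on the median gene.

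**Figure D4:**
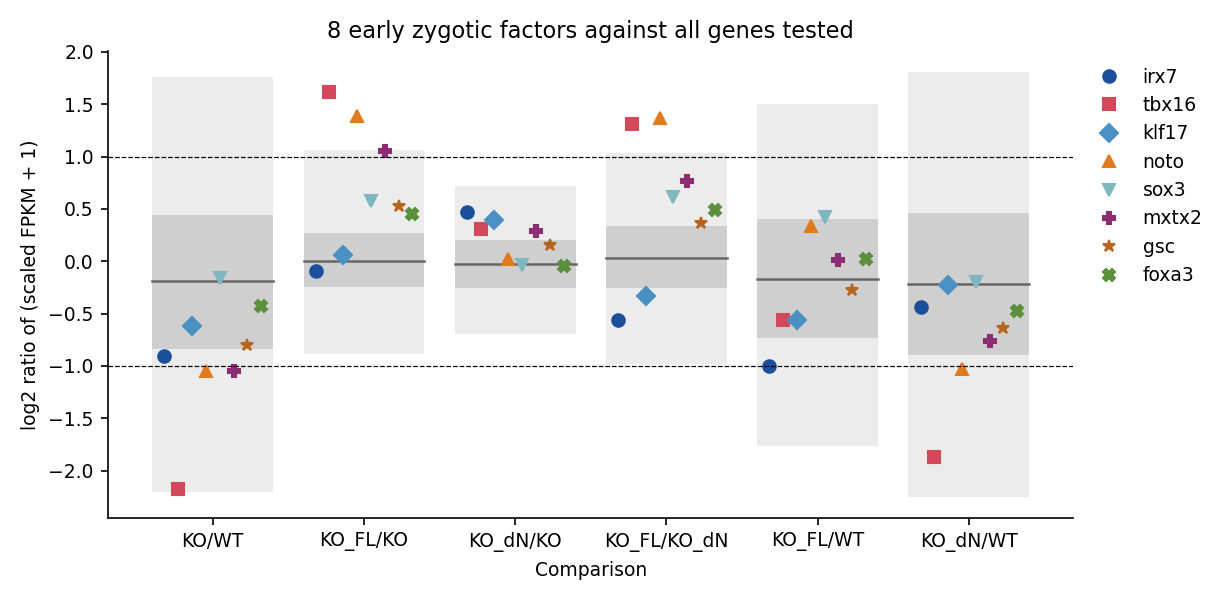
Log2 ratios of (scaled FPKM + 1) for the 8 genes in 6 comparisons. Dark grey spans the interquartile range of 6356 genes, light grey the 5th to 95th percentile, the grey line is their median and dashed lines mark 2-fold; tbx16 and noto lie above the light band in KO_FL/KO (1.62 and 1.39) and in KO_FL/KO_dN (1.31 and 1.37), and every gene lies inside it in KO/WT.

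Set directly against WT, the injected groups differed in which members were low. In KO_FL against WT, irx7 alone was at least 2-fold lower (-1.003) and 0 were higher, where 16.5% of all genes were lower and 9.88% higher. With TPM irx7 was at -0.64. mxtx2 (0.01) and foxa3 (0.02) were level with WT, noto (0.34) and sox3 (0.42) above it, and tbx16 (-0.56), klf17 (-0.56) and gsc (-0.27) below it. All 8 were below WT as deposited, foxa3 and mxtx2 lay below it when the 50 highest genes were left out of the scaling, and gsc came above it with deposited values centred. In KO_dN against WT, tbx16 (-1.87) and noto (-1.03) were at least 2-fold lower and 0 were higher, where 21.7% of all genes were lower and 12.5% higher. noto did not reach 2-fold with TPM (-0.72) or with deposited values centred (-0.98). On this scale all 8 members were below 0 in KO_dN, but irx7, klf17 and sox3 were above it with TPM, and foxa3 and gsc with deposited values centred. The median gene was below 0 there too, at -0.22, against a members' median of -0.56. Of the 8 members, 7 lay below that gene, with klf17 (-0.22) and sox3 (-0.20) close to it.

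Other early zygotic transcription factors were read from a list of 52 symbols, of which 30 could be matched to an identifier with a value and 7 passed the limit of 1 scaled FPKM. A symbol without a match may still have had footprints. The early zygotic genes tbxta, vox, vent, ved, sox32 and sox17 were not analysed, because the gene name table gives them newer identifiers that the deposited values do not use. The median log2 ratio of the 30 was -0.04 in KO/WT and 0.02 in KO_FL/KO, since most were hardly read in any group. In KO/WT, 3 of the 30 lay at least 2-fold below WT and 1 lay above it, where 20.4% and 12.2% of all genes tested did, but 23 of the 30 were under the limit that those genes passed. The lower genes, named after their values were seen, were mxtx1, tfap2a and mixl1. mxtx1, a Mix-type relative of mxtx2 in the yolk syncytial layer, showed 5.22 scaled FPKM in WT and 0.20 in KO, and 3.13 in KO_FL and 0.26 in KO_dN. mixl1, a Mix-type factor of mesendoderm, stood at 1.57, 0.07, 0.88 and 0.05. In both, as in mxtx2, WT and KO_FL were the high groups. tfap2a, of the ectoderm and neural crest, stood at 3.36, 0.99, 1.90 and 1.84. The higher gene was snai1a, a Snail-family repressor, at 5.31 scaled FPKM in WT and 20.4 in KO, and 17.7 in KO_FL and 17.7 in KO_dN. sox19a, a SoxB1 relative of sox3, stood at 5.97 in WT and 9.65 in KO, and 15.6 in KO_FL and 14.2 in KO_dN. otx1, a head homeobox gene, ran from 1.74 to 3.72, and klf2a, a Krüppel-like gene, from 1.18 to 3.05. gata3, a GATA factor of the ventral ectoderm, had 2.75, 1.11, 2.99 and 2.77, so KO alone was low and KO_dN/KO had a log2 ratio of 0.83. In KO_FL/KO mxtx1 alone among the 30 reached 2-fold, at 1.78, and 0 did in KO_dN/KO. Of all genes tested, 5.55% were higher and 3.9% lower by as much in KO_FL/KO, and 3.04% and 2.17% in KO_dN/KO.

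Maternal activators of the zygotic genome were not low in KO on the scaled values. nanog showed 34.7 scaled FPKM in WT and 95.4 in KO, and 81.6 in KO_FL and 91.4 in KO_dN. pou5f3 stood at 31.6, 39.8, 42.5 and 37.7, and sox19b at 6.72, 13.0, 7.37 and 14.8. Measured inside a group, the level of tbx16 was 0.28 times that of nanog in WT, 0.015 times in KO, 0.078 times in KO_FL and 0.022 times in KO_dN. For irx7 the same multiples were 0.31, 0.054, 0.059 and 0.083. Both genes were thus lower relative to nanog in all 3 mutant groups than in WT. From KO to KO_FL the multiple of tbx16 was 5.31 times higher and that of irx7 1.08 times. As deposited, nanog showed 117.9 FPKM in WT and 69.7 in KO. The deposited values of pou5f3, sox19b, snai1a and sox19a, and of foxh1 and ybx1 below, were also lower in KO, unlike their scaled values. Without scaling, however, 79.3% of all 6356 genes were at least 2-fold lower in KO, and the median gene stood at -1.95. The direction of these genes thus depends on whether the groups are brought level. Of the other maternal factors read, foxh1, a mediator of Nodal signalling, showed 4.47 scaled FPKM in WT and 4.59 in KO, and 5.02 in KO_FL and 5.22 in KO_dN, and smad2 stood at 26.6, 22.7, 13.1 and 27.1. max stood at 13.0, 9.34, 14.2 and 6.48, and ybx1, an RNA-binding Y-box protein, at 60.0, 242.1, 243.0 and 176.3.

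**Figure D5:**
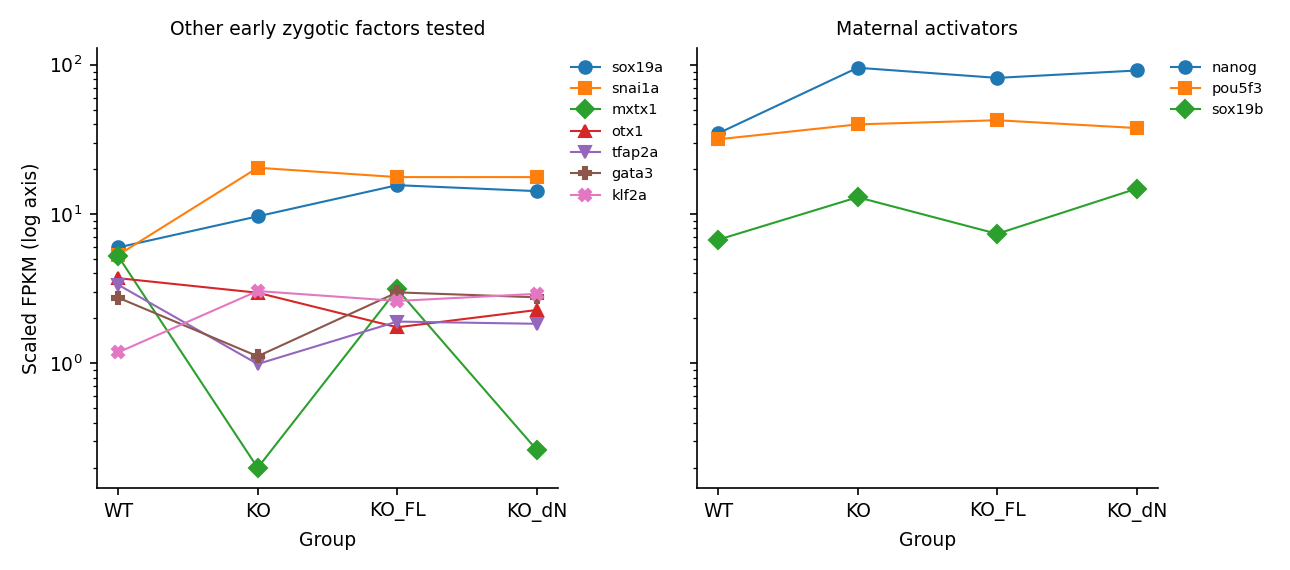
Scaled FPKM on a log axis of the 7 other early zygotic factors that passed the limit (left) and of 3 maternal activators (right) in WT, KO, KO_FL and KO_dN; lines only join the points of a gene. mxtx1 stands at 0.20 in KO and 0.26 in KO_dN, while nanog is lowest in WT at 34.7.

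Markers of the enveloping layer, the outer cell sheet of the embryo, were summed as a check on other cell types. Of 14 enveloping layer markers 12 had a value, and their summed scaled FPKM was 95.3 in WT and 50.1 in KO, and 95.6 in KO_FL and 44.8 in KO_dN. The similar sums of WT and KO_FL came from different genes. grhl3 gave 43.7 in WT and 14.6 in KO_FL, epcam 21.7 and 35.0, and krt18a.1 11.0 and 21.1. The deposited sums were 323.8, 36.6, 86.2 and 20.0. In KO/WT 4 of the 12 were at least 2-fold lower and 1 higher, against 20.4% and 12.2% of all genes tested. In KO_FL/KO 5 were higher and 0 lower, against 5.55% and 3.9%, and 8 of the 12 passed the limit of 1 scaled FPKM. cyt1 was listed at 0 in KO and KO_dN. krt8 went from 5.63 in WT to 0.81 in KO, 7.19 in KO_FL and 1.06 in KO_dN. krt18a.1 stood at 11.0, 5.89, 21.1 and 4.56, and epcam, higher in KO than in WT, at 21.7, 25.4, 35.0 and 17.7. krt92, named after its values were seen, was the marker at least 2-fold higher in KO than in WT, at 0.90, 3.53, 1.63 and 4.68. grhl3, the layer's Grainyhead-like regulator, stood at 43.7, 11.4, 14.6 and 12.9, so unlike krt8 and krt18a.1 it was below WT in KO_FL on scaled values. Of 10 yolk syncytial layer markers 8 had a value, with sums of 125.9, 114.3, 162.1 and 96.0, of which ctsla alone gave 110.4, 109.0, 142.1 and 89.6. apoeb stood at 9.14, 4.61, 16.2 and 5.94 and hnf4a at 0.80, 0.38, 0.47 and 0.10. mxtx1, given above, is also on this list. apoa1a was listed at 0 in KO and KO_dN, slc26a1 in KO_dN, ttr in KO and KO_FL, and apoa2 in every group but KO. In KO/WT 1 of the 8 was at least 2-fold lower and 0 higher, against 20.4% and 12.2% of all genes tested. In KO_FL/KO 2 were higher and 0 lower, against 5.55% and 3.9%, and 3 of the 8 passed the limit of 1 scaled FPKM. The 9 germ plasm markers summed to 25.6, 24.0, 23.9 and 21.8, with ddx4 at 10.4, 8.76, 10.1 and 8.10, buc at 3.26, 2.34, 1.80 and 2.92, ca15b at 5.20, 2.18, 2.63 and 1.41 and piwil1 at 1.24, 5.68, 4.74 and 4.23. Whether the make-up of the embryos in cell types had a part in the members' levels was not tested. Of 10 later tissue markers 8 had a value and their highest FPKM was 1.44 in WT and 0.15 in the other groups, so the libraries held the blastula factors nanog and pou5f3 and hardly any later markers. The 4 highest of those were elavl3, cdh17, gata1a and ins, and ins was listed at 0 in both injected groups.

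The mean pattern of the 8 members over the 4 groups averages genes that differ, and 5 of the 8 lay more than 0.5 from it. Of 4898 other genes with a symbol and at least 1 scaled FPKM, 584 lay within a Euclidean distance of 0.5 of it on centred log2(scaled FPKM + 1) values. The nearest were si:dkey-105i19.5, HMGB3, CYTH3, si:ch211-202f5.3 and SEMA4B, at distances of 0.033 to 0.080. HMGB3 showed 3.47 scaled FPKM in WT and 1.30 in KO, and 2.66 in KO_FL and 1.67 in KO_dN. The members themselves lay at 0.13 (gsc) to 1.07 (tbx16) from their mean.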

How the data were processed

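Ribosome footprints were sequenced from 8 samples in 4 groups of 2, taken from the sample titles. The authors deposited FPKM, 1 value per gene and group, made from both replicates per the series design text; the value was read as their mean. Per the submitters' processing notes, cutadapt 1.13, Trimmomatic 0.36, Bowtie, TopHat2 2.1.1, Cufflinks 2.2.1 and the Zv9 build were used, with settings not given in the sources used here. In WT, 101 identifiers took up 218 lines; those and 3 identifiers absent from it were left out, which left 33633, of which 21863 had a symbol in a gene name table. Values were divided by median-of-ratios factors over 3177 genes at 1 FPKM or more in every group. Ratios used a pseudocount of 1. The worth of a read came from log2 ratios among genes below 0.1 FPKM in both groups. Of the commonest ratios, the most frequent set of 4 lying symmetrically about their mean was used, and it held 15.7 to 20.2% of those genes. Scaling and counting were tested on simulated data, in which some genes were lowered in KO alone. The simulated spread was smaller than that between KO and WT here, so the run does not show how well the scaling levels these groups. Members and lists were chosen with earlier results of these data known. A listed symbol said to have no value was one not matched to these identifiers, whether or not the gene had footprints. Besides the members, the 4 genes of highest mean in each list and the 5 of nearest pattern were to be named. Python 3.11.15, pandas 2.3.3 and numpy 2.4.6 were used. Depth in reads is unknown, so no interval is given. Promoter motifs that had been planned were not analysed here.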

Additional observations from a re-analysis of the deposited data

How the results depend on the processing

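With 1 deposited value per group, no leave-one-out was possible. No paired analysis was possible because each deposited column already combines both replicates. A median of the members was taken as moved at 0.58 log2 or more and a count beyond 1.5 times; of 384 single-gene values under the 8 alternatives that can change them, 329 stayed within 0.58. With a pseudocount of 0.1, 5 members were at least 2-fold lower in KO/WT and 5 in KO_dN/WT. At least 2-fold higher were 5 in KO_FL/KO and 4 in KO_FL/KO_dN. The shares of all genes in those directions were 27.5%, 29.5%, 8.79% and 8.87%. With a pseudocount of 5 the member counts were 1, 1, 0 and 0, and the shares 8.65%, 9.03%, 2.91% and 2.74%. In KO_FL/WT 0 members were then lower, where 6.39% of all genes were. With no pseudocount the member counts were 6, 5, 5 and 4, with medians of 1.28 in KO_FL/KO and -1.26 in KO_dN/WT. The shares of tested genes above 0 in both groups were then 27.5%, 29.6%, 8.28% and 8.31%. As deposited without centring, 8 members were lower in each of KO/WT, KO_FL/WT and KO_dN/WT, with medians of -2.63, -1.58 and -2.74, and 4 were higher in KO_FL/KO_dN. Of all 6356 genes 79.3%, 75.4% and 87.2% were then lower in those comparisons with WT, and 23.2% higher in KO_FL/KO_dN. Centred deposited values left 1 member lower in KO_dN/WT, where 20.1% of all genes were. With TPM 0 members were lower in KO_FL/WT and 1 in KO_dN/WT, where 11.4% and 15.5% of all genes were. foxa3, gsc and mxtx2 stood at 0.36 to 2.55 scaled FPKM, near the pseudocount; the cause of these moves was not tested. Leaving out the 50 highest genes and summing repeated identifiers moved no count or median past those bounds; the limits on low values change the background alone, not the members' values.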

Other observations

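Of the 23 other early zygotic factors under 1 scaled FPKM, 8 (34.8%) had both WT and KO_FL above KO and KO_dN on scaled values. On deposited values 13 (56.5%) did. Of all genes tested, 26.1% had that order on scaled and 68.0% on deposited values. The genes named here were chosen after their values were seen. gata5, a GATA factor of endoderm and heart, showed 0.42 scaled FPKM in WT and 0.014 in KO, and 0.28 in KO_FL and 0.030 in KO_dN. foxa2, a forkhead relative of foxa3, stood at 0.14, 0.058, 0.26 and 0.11 scaled FPKM in that order of groups. otx2a stood at 0.62, 0.29, 0.47 and 0.16 scaled FPKM, and klf2b at 1.54, 0.47, 0.73 and 0.42. isl1 did not have that order on scaled values, at 0.18, 0.22, 0.079 and 0.26, nor did msgn1, at 0.041, 0.24, 0.12 and 0.13. None of these genes reached a mean of 1 scaled FPKM. her1 and foxa were listed at 0 in all 4 groups, her7 in KO and KO_dN, and cdx4 in the 3 mutant groups.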
